A study of Mus musculus with 12 samples.

Results

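The clustered histone genes are the replication-dependent histone genes that lie in tight groups on mouse chromosomes 3 and 13. They were taken as the autosomal protein-coding genes of the RefSeq annotation of mm10 (GRCm38.p6) whose symbol begins with H2ac, H2bc, H3c or H4c and a number, or is H1f1 to H1f6. The rule gave 63 of 20661 autosomal protein-coding genes. Of these, 6 encode the linker histone H1, 17 H2A, 16 H2B, 12 H3 and 12 H4. The group was chosen by its measured values in these data. In an earlier look, H3c10, H2ac13, H2bc13 and H2bc14 were listed among genes with fewer neighbouring peaks in Baf60a KO than in WT cells. The window of that earlier count is not given here. Within 2 kb, the measure used below, H2bc14 had 1 peak in each of the 12 lists as deposited and so showed no such difference. Every KO against WT value below is therefore a description without a test.

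Nucleosomes are built from H2A, H2B, H3 and H4, and H1 binds the linker DNA between them. The clustered genes supply most of these proteins during DNA replication. They have no introns as a rule, their mRNAs end in a stem-loop in place of a poly(A) tail, and they are transcribed in S phase with the coactivator NPAT in a nuclear compartment called the histone locus body. Many H2A and H2B genes are arranged head to head and share the DNA between their start sites.

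Open chromatin was mapped with a transposase that inserts into accessible DNA (ATAC-seq) in 12 libraries of primary bone marrow-derived macrophages (BMDMs), asking how loss of Baf60a affects accessibility. Baf60a is the protein of Smarcd1 and belongs to the SWI/SNF complexes, which move nucleosomes, and oxLDL is the modified lipoprotein that turns macrophages into foam cells. The ApoE KO cohort held 2 libraries each of oxLDL-treated KO, oxLDL-treated WT, untreated KO and untreated WT cells, all lacking ApoE. Its KO cells carried floxed Baf60a with Lyz2-Cre, which acts in myeloid cells, and its WT cells carried the floxed allele without Cre. The other set, called the first cohort here, held 1 library for each of the same 4 combinations, and its labels give neither the ApoE status nor the Cre. Treatment was 50 µg/ml oxLDL for 48 h. Omni-ATAC was used for the first cohort and a Nextera kit on cryopreserved cells for the ApoE KO cohort, so background, preparation and cohort cannot be told apart. The labels do not state whether replicates are separate animals or cultures. The p-values therefore reflect the spread between these samples alone, and that spread may be technical.

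Lists of the first cohort held 82177 to 141441 peaks, and those of the ApoE KO cohort 24397 to 44524. All 12 macrophage marker genes had a peak within 2 kb in each first-cohort list, and 95.8% of marker and list pairs did in the ApoE KO cohort. Markers of B cells had a peak in 31.3% of ApoE KO and 84.4% of first-cohort cases, those of the T and NK lineages in 43.8% and 60%, neutrophil markers in 34.4% and 81.3%, and erythroid and megakaryocyte markers in 45.3% and 75%. For all genes the shares were 61.3% in ApoE KO and 75.9% in first-cohort lists. Smarcd1 had a peak in 12 of 12 lists. The search covered all of Smarcd1, and where its floxed segment lies was not examined, so a peak there does not check the genotype labels. Its KO minus WT difference in score percentile, a measure explained below, was -18.3 points (SE 4.17, limma adjusted p = 0.287). The file names of 3 ApoE KO libraries carry the mark L001, namely oxLDL KO replicate 1 and both untreated WT replicates. In untreated ApoE KO cells genotype and this mark therefore cannot be told apart.

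Promoter windows from RefSeq (GRCm38.p6), which run from 250 bases before to 50 bases after a start site, were at hand for 58 of the 63 genes, with 59 windows. H2bc21, H4c14, H3c7, H2bc4 and H3c1 had no entry. The 4 windows below come from genes that ranked high in the lists, 1 for each core histone. H4c3 is shown for its rank and not as typical of H4, in which CCAAT was the exception and TATAAA and GGGCGG were each in 8 of 11 windows. Capitals mark CCAAT, ATTTGCAT (the octamer bound by OCT1), TATAAA and GGGCGG, in either orientation. The windows are H2ac6 chr13:23683910-23684209 (- strand), H2bc12 chr13:22035571-22035870 (+ strand), H3c6 chr13:23562336-23562635 (- strand) and H4c3 chr13:23698409-23698708 (- strand).
H2ac6: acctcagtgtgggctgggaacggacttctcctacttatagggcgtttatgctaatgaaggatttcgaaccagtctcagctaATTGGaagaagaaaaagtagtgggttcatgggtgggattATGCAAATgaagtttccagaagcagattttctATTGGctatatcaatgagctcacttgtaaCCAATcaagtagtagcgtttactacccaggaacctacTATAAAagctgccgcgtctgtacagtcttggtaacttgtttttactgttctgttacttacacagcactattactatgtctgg
H2bc12: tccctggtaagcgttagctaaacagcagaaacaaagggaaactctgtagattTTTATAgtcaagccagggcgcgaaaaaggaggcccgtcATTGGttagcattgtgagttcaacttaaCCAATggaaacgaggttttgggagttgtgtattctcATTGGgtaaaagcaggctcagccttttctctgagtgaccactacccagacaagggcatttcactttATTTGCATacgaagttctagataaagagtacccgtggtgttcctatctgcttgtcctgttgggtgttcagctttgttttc
H3c6: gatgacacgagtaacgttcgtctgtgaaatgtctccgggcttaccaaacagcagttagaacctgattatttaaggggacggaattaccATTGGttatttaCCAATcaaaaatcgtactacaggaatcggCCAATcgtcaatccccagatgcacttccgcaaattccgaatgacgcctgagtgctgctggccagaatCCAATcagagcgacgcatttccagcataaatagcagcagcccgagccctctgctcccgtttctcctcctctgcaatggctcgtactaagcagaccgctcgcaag
H4c3: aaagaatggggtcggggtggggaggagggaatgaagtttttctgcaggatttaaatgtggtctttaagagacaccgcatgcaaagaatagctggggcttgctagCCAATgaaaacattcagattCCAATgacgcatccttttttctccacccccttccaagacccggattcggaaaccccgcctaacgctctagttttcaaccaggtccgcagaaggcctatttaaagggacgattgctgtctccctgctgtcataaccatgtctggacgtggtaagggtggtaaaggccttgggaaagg

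CCAAT, the recognition element of NF-Y, was in 86.4% of the histone windows and in 38.1% of the 20084 windows of all autosomal protein-coding genes. At least 2 copies were in 71.2% of the histone windows and in 12.8% of all windows. The classes differed. CCAAT was in every H1, H2A, H2B and H3 window but in 3 of 11 H4 windows, and all 17 H2A and all 15 H2B windows had at least 2 copies. The octamer was in 22.0% of the histone windows, against 1.67% of all windows. It was found in 6 H2A and 7 H2B windows and in no window of another class. TATAAA was in 57.6% of the histone windows and 12.7% of all windows, whereas GGGCGG was in 39.0% and 47.0%. Median GC content was 45.3% in the histone windows and 57% in all windows. Motifs were searched on both strands and each was counted separately where 2 overlapped. A match is a description of the letters in these windows and does not show binding.

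**Figure D1:**
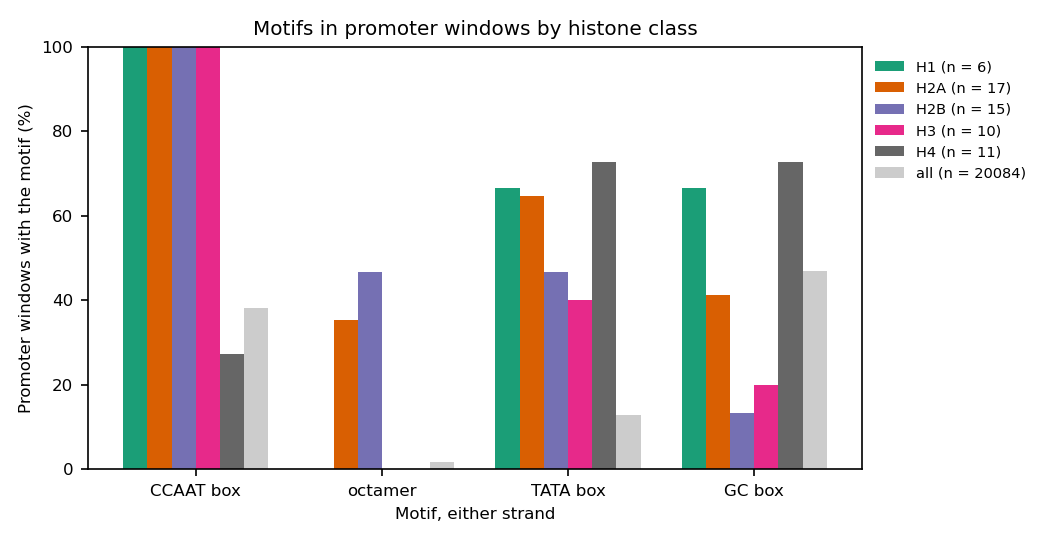
Percentage of promoter windows (y axis) that hold each motif on either strand (x axis), for the 5 histone classes and for all 20084 windows. The CCAAT bar stands at 100% in the H1, H2A, H2B and H3 classes and is lowest in H4, and the octamer bar is above 0 in H2A and H2B alone among the histone classes.

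The next 4 windows are shown because their genes sat at the low end of the lists or have a near-identical copy. H2ac18 and H2ac19 are a near-identical pair, H4c18 was the H4 gene with the lowest mean percentile, and H2ac1 is a testis-specific H2A gene. The windows are H2ac18 chr3:96245247-96245546 (+ strand), H2ac19 chr3:96240325-96240624 (- strand), H4c18 chr13:21832148-21832447 (- strand) and H2ac1 chr13:23934187-23934486 (+ strand).
H2ac18: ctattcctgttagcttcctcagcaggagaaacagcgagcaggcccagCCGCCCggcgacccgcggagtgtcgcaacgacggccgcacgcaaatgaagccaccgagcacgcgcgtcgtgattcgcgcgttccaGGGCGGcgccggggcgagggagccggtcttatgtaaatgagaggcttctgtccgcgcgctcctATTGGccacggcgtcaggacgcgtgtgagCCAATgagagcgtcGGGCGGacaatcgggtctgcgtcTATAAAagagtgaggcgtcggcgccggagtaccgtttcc
H2ac19: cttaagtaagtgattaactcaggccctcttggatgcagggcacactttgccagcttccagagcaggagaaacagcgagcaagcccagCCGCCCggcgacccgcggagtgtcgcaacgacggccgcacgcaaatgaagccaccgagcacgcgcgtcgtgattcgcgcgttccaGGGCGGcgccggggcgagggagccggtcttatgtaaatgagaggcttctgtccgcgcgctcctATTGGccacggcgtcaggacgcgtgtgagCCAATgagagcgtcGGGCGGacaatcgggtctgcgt
H4c18: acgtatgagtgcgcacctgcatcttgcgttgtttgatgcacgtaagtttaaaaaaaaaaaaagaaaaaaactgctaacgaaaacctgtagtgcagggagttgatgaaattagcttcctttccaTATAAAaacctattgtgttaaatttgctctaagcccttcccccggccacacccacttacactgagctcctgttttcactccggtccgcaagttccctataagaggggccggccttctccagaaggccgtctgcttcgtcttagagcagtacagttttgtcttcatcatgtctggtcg
H2ac1: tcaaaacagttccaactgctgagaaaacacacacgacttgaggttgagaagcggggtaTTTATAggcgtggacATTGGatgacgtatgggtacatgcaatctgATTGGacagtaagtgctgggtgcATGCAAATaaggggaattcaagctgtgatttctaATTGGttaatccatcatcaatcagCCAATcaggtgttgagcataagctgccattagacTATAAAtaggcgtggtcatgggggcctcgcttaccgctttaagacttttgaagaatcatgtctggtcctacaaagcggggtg

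A peak lay over the promoter window in all 12 lists for 40 of 59 histone windows (67.8%), against 38.2% of all windows. No list had a peak over 7 histone windows (11.9%), against 38.1% of all windows. These 7 belong to H3c14, H2bc23, H2ac23, H2ac24, H1f6, H2bc1 and H2ac1. H2bc1 and H2ac1 are testis genes, and H1f6 encodes the testis linker histone H1t. H1f6 nonetheless ranked high by the 2 kb measure, because its window reaches the peak of its neighbour H4c3. By class, a peak lay over the window in all 12 lists for 3 of 6 H1, 10 of 17 H2A, 13 of 15 H2B, 6 of 10 H3 and 8 of 11 H4 windows.

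Of the 1711 pairs of histone windows, 5 were over 90% identical in their best ungapped alignment. These were H2ac23 and H2ac24 (100% over 200 bases), H4c17 and H4c18 (99.7%), H3c15 and H3c14 (99.6%), H4c11 and H4c12 (95.8%), and H2ac19 and H2ac18 (95.8%). The next pair, H2ac22 and H2ac24, reached 54.8%. The H2ac23 and H2ac24 windows had a peak in 0 lists each. Those of H4c17 and H4c18 had one in 4 lists each, H3c15 in 4 and H3c14 in 0, H4c11 in 12 and H4c12 in 11, and H2ac19 in 8 and H2ac18 in 12. How reads that map to both copies were treated is not given in the sources used here, so the values of these genes are uncertain and the part of mapping in them was not tested.

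Among the genes with a RefSeq window, head-to-head H2A and H2B genes with start sites 164 to 281 bp apart (median 180 bp) formed 9 pairs. Pairs with a member that had no entry, such as H2bc4 or H2bc21, were not measured. The narrowPeak lists of the ApoE KO cohort give a summit for each peak. For 7 of the 9 pairs a peak covered the DNA between the start sites in all 8 ApoE KO lists, and the summit of the best such peak lay between the starts in 36 of these 56 cases. The other pairs, H2bc23 with H2ac23 and H2bc1 with H2ac1, had no peak there in any of the 8 lists. H2ac22 with H2bc22 and H2ac12 with H2bc12 had the summit between the starts in 7 of 8 lists, and H2ac11 with H2bc11 and H2bc7 with H2ac7 in 3 of 8.

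Over 57 windows with a summit, the median position of the best peak's summit was -13 bp from the start site (quartiles -183 and 84.5 bp, positive meaning downstream), and 34 of the 57 lay within 250 bp. The class medians were 75.5 bp for H1, 6.75 bp for H2A, -111 bp for H2B, -314 bp for H3 and 55 bp for H4. The best peak within 2 kb can be that of a neighbour. H1f6 stood at 2582 bp through the peak of H4c3, and H3c14 at -1416.5 bp through a peak shared with H2ac18. The class medians therefore mix a gene's own peaks with those of neighbours.

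**Figure D2:**
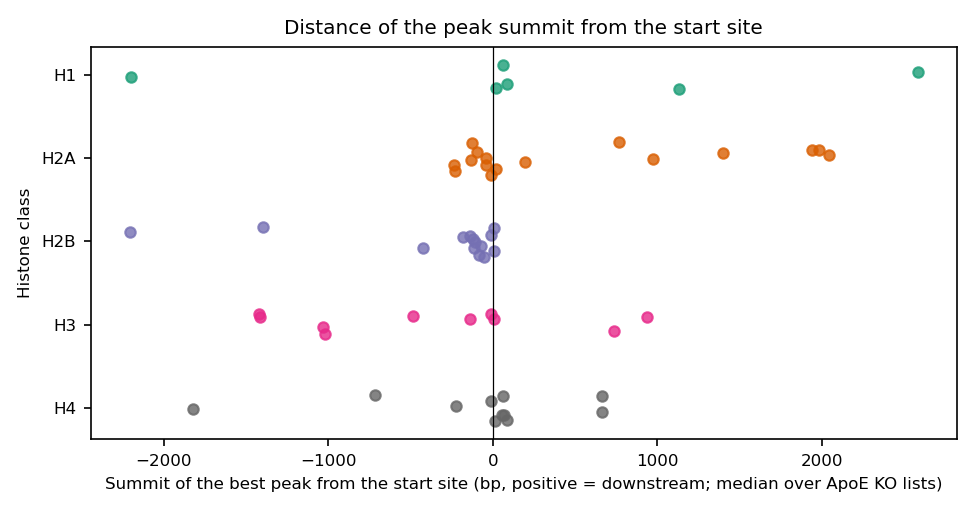
Distance of the best peak's summit from the start site (x axis, bp, positive downstream) by histone class (rows), 1 point per promoter window, each the median over ApoE KO lists. The points run from -2205 bp in H2B to 2582 bp in H1, and 34 of the 57 lie within 250 bp of the start site. The best peak can be that of a neighbouring gene.

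Accessibility at these genes was the rule. Counting any peak within 2 kb of the gene, 55 of the 63 genes (87.3%) had one in all 12 lists, against 52.1% of all 20661 genes. None lacked a peak in every list, where 19.9% of all genes did. The remaining 8 were H4c12 in 11 lists, H2ac23 and H4c17 in 10, H4c18 and H2ac24 in 8, H2bc23 in 5, and H2bc1 and H2ac1 in 3. In the first cohort 96.8% to 100% of the histone genes had a peak in a list, against 73.4% to 79.1% of all genes. Across ApoE KO lists 87.3% to 96.8% of the histone genes had one, against 56.7% to 66.4% of all genes. A peak in all 12 lists was not particular to the clustered histone genes. It was found for 90.9% of 11 replication-independent histone genes and 87.5% of 24 S-phase and cell-cycle genes. The share was 100% for 20 genes of histone transcription and mRNA processing and for 18 histone chaperones, and 91.7% for the 12 macrophage markers.

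Neighbouring genes share peaks, so peaks were also counted once. First-cohort lists held 57 distinct peaks within 2 kb of a histone gene in oxLDL KO, 56 in oxLDL WT, 55 in untreated KO and 56 in untreated WT cells. ApoE KO lists held 54 and 45 in oxLDL KO, 45 and 48 in oxLDL WT, 42 and 51 in untreated KO, and 48 and 50 in untreated WT cells. The counts of the 4 groups overlapped in the ApoE KO cohort. Merged over all lists where they overlapped by 1 bp or more, the peaks formed 53 histone regions. Of these, 33 (62.3%) had a peak in all 12 lists, against 14.4% of 91897 regions near any gene. A region served up to 5 genes, 34 were shared by at least 2 genes, and the median length was 1374 bp, against 427 bp for regions near any gene. Regions near any gene include those inside the gene as well as within 2 kb of it. Longer genes therefore bring in regions far from a start site, and these contrasts were not limited to start sites.

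Strength was read as a score percentile, since caller scores cannot be compared between lists. The peaks of a list were ranked by the authors' score, with 100 the highest, and a gene took the percentile of its best peak within 2 kb, or 0 where it had none. The search covered the whole gene and 2 kb on each side, so a longer gene drew on more DNA. To keep list length from setting the value, first-cohort lists were cut to their 80394 top-scoring autosomal peaks and ApoE KO lists to 24397. In these equal-length lists, the histone genes with a peak had a median percentile of 74.8 in oxLDL KO, 80.7 in oxLDL WT, 58.5 in untreated KO and 68.4 in untreated WT cells of the first cohort. All genes with a peak had medians of 87.0 in oxLDL KO, 87.7 in oxLDL WT, 84.0 in untreated KO and 86.5 in untreated WT cells, above the histone genes in each of the 4 lists.

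The histone genes with a peak in ApoE KO lists, 53 to 60 of the 63, had a median of 76.9 and 80.1 in oxLDL KO, 72.8 and 81.0 in oxLDL WT, 79.1 and 77.6 in untreated KO, and 82.8 and 79.5 in untreated WT cells. All genes with a peak had medians of 70.7 to 74.0. The histone median was above that of all genes in 7 of 8 ApoE KO lists and level with it at 72.8 in oxLDL WT replicate 1. With the histone genes that lacked a peak counted as 0, it was 67.5 in oxLDL KO replicate 2. The fold enrichment that the authors give for ApoE KO peaks had list medians of 4.16 to 6.34 for histone peaks and 3.49 to 4.38 for peaks near any gene. Histone peaks were also broad. Their median width was 424.5 to 1258 bp across ApoE KO lists and 797 to 1209 bp across first-cohort lists, against 338 to 509 bp for peaks near any gene in all 12. Peaks near any gene include those inside long genes, so the fold and width contrasts do not compare start sites alone.

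**Figure D3:**
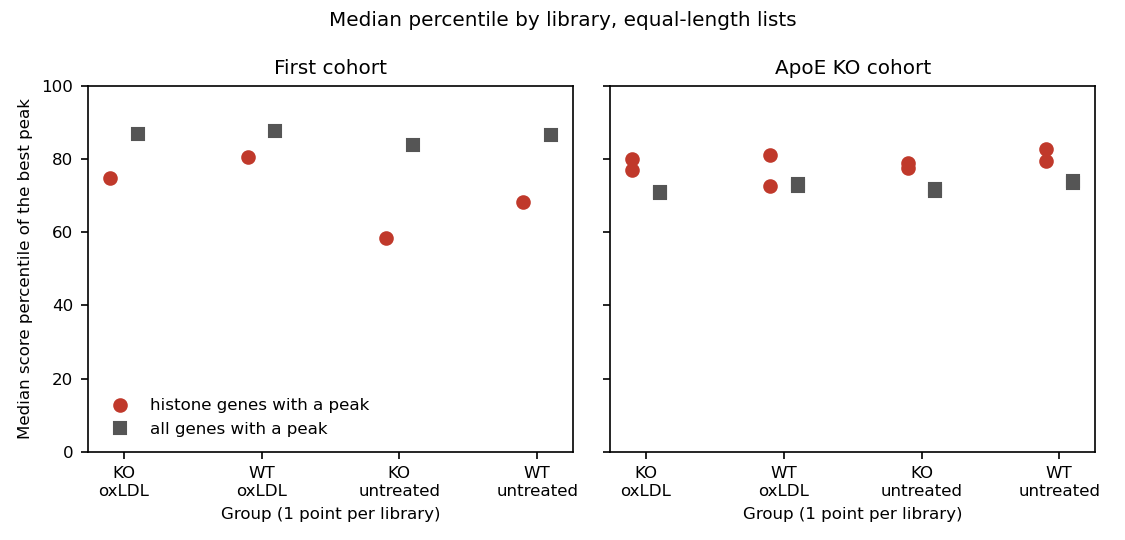
Median score percentile of the best peak within 2 kb (y axis, equal-length lists) for the histone genes with a peak and for all genes with a peak, 1 point per library, by group (x axis) in each cohort. The histone medians lie below those of all genes in all 4 first-cohort lists and above them in 7 of 8 ApoE KO lists. Each gene gives its best peak alone, and a longer gene is searched over more DNA.

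The clusters differed in level. The chromosome 3 cluster (chr3:96219885-96270192, 10 genes) had a median of 69.0 over its genes' mean percentiles. On chromosome 13, split where neighbouring members lie more than 100 kb apart, block 1 (chr13:21715711-21833475, 17 genes) had 55.9, block 2 (chr13:22035122-22043658, 5 genes) 77.0 and block 3 (chr13:23531044-23764412, 29 genes) 76.1. Block 4 (chr13:23933725-23934913) holds the testis genes H2bc1 and H2ac1 alone and had 3.46. Percentiles of the cohorts come from lists of unequal length and are not on 1 scale. Within the ApoE KO lists the median was 66.1 for the chromosome 3 cluster, 51.5 for block 1, 82.9 for block 2 and 79.3 for block 3. Within the first-cohort lists it was 71.7 for the chromosome 3 cluster, 66.7 for block 1, 65.2 for block 2 and 67.3 for block 3. Hfe, the haemochromatosis gene, is the other protein-coding gene inside these spans. It lies in block 3, had a peak within 2 kb in 12 of 12 lists and had a mean percentile of 40.2.

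**Figure D4:**
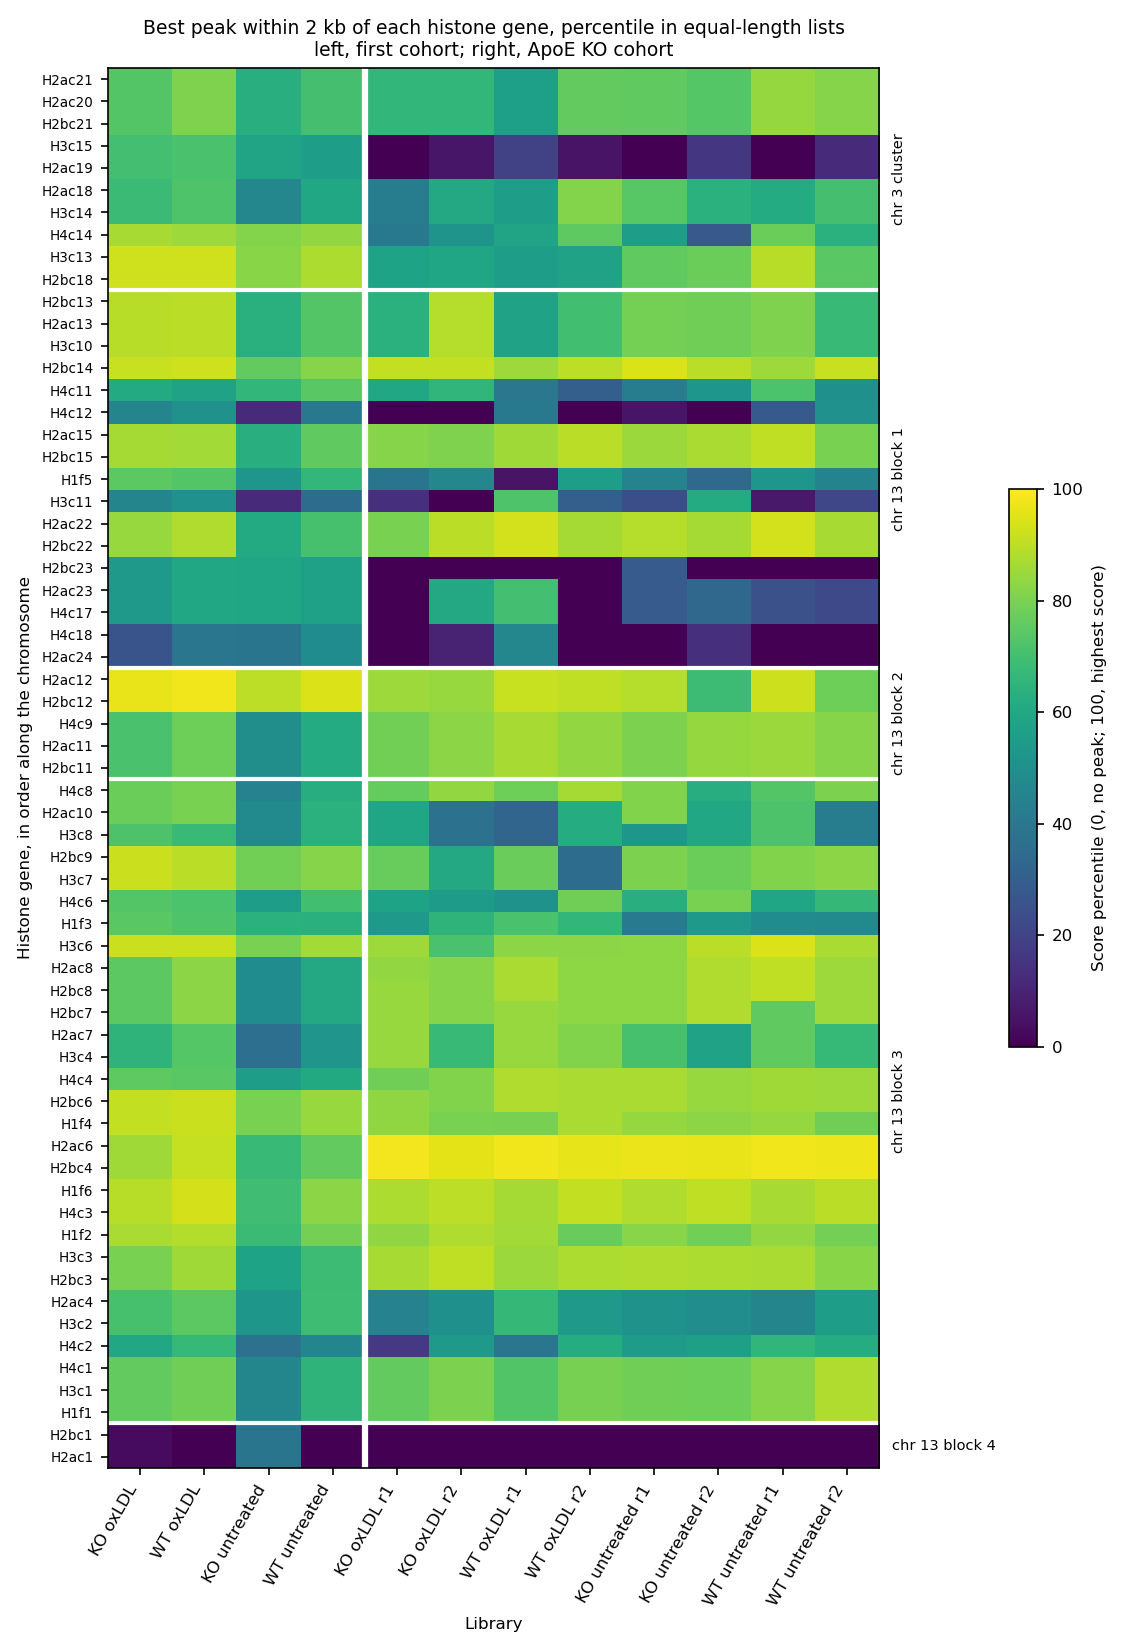
Score percentile of the best peak within 2 kb (colour, 0 for no peak) for each of the 63 histone genes (rows, in chromosomal order, white lines between clusters) in each of the 12 libraries (columns, r1 and r2 are replicates 1 and 2). H2ac6 and H2bc4 are bright in all ApoE KO columns, and H2bc1 and H2ac1 at the bottom are dark in nearly all.

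The highest and lowest genes of each class were taken by the mean over the 12 equal-length lists, which pools cohorts that are not on 1 scale. Among the linker histone genes, this mean was highest for H1f6 at 87.0, from the peak it shares with H4c3, and lowest for H1f5 at 49.2. Within the first cohort H1f4 was highest at 86.8, against 83.7 for H1f6. The lowest there was H1f1 at 66.3, against 66.7 for H1f5. H1f5 had 39.0 and 46.4 in oxLDL KO, 5.17 and 56.2 in oxLDL WT, 44.9 and 34.5 in untreated KO, and 52.4 and 45.0 in untreated WT cells of the ApoE KO cohort. Its groups overlapped, with 1 oxLDL WT library far below the other.

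Among the H2A and H2B genes, H2ac6 (chr13:23683473-23683959) and its neighbour H2bc4 (chr13:23684199-23692480) shared the best peak and had the highest mean, 91.5. They had 98.1 and 95.9 in oxLDL KO, 97.9 and 96.4 in oxLDL WT, 97.1 and 96.7 in untreated KO, and 98.0 and 97.6 in untreated WT cells of the ApoE KO cohort. In the longer first-cohort lists the values were 85.9 in oxLDL KO, 91.4 in oxLDL WT, 67.3 in untreated KO and 75.8 in untreated WT cells. Within that cohort H2ac12 and H2bc12 were highest with a mean of 94.9, against 80.1 for H2ac6 and H2bc4. The H2ac6 window printed above holds 3 CCAAT copies, 1 octamer and 1 TATAAA. H2bc1 and H2ac1 stood at the other end with a mean of 3.46. They had 2.84 in oxLDL KO, 38.7 in untreated KO and 0 in both WT lists of the first cohort, and 0 in all 8 ApoE KO lists. The H2ac1 window also holds CCAAT, the octamer and TATAAA.

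Among the H3 genes, H3c6 (chr13:23561475-23562385) was highest with a mean of 85.5 over the 12 lists and H3c15 lowest with 26.2. H3c6 was highest in neither cohort alone. In the first cohort H3c13 had 88.9, against 87.5 for H3c6, and in the ApoE KO cohort H3c3 had 87.0, against 84.5. H3c11 was lowest in the first cohort with 35.8. H3c15 had 70.1 in oxLDL KO, 71.2 in oxLDL WT, 58.5 in untreated KO and 55.5 in untreated WT cells of the first cohort. Its ApoE KO values, from shorter lists, were 0 to 19.7. H3c15 has a near-identical copy of its promoter at H3c14, which had 42.2 to 81.6 in the ApoE KO lists through a peak shared with H2ac18. Among the H4 genes, H4c3 (chr13:23698084-23698458) was highest with 87.0 over the 12 lists and H4c18 (chr13:21831792-21832197) lowest with 18.6. In the first cohort alone H4c14 was highest with 84.4, against 83.7 for H4c3. H4c12 was lowest there with 37.2, against 38.2 for H4c18. H4c18 had 26.0 to 48.8 in the first cohort and 0 in 5 of 8 ApoE KO lists.

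The comparison of oxLDL-treated with untreated cells asked whether lipid loading changed these peaks. In the first cohort the histone genes ranked higher with oxLDL. Both oxLDL lists lay above both untreated lists for 55 of 60 histone genes with a peak in at least 6 of 12 lists (91.7%), where 38.2% of all 12462 such genes did so. Both lay below for H4c11 alone (1.67%), where 16.3% of all did. The 3 histone genes that did not pass this filter were H2bc23, H2bc1 and H2ac1. The other 4 without both oxLDL lists on top were H2ac23, H4c17, H4c18 and H2ac24, all at the same end of block 1. The median difference was 15.9 percentile points over the 60 histone genes and 1.499 over all genes.

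The difference was present in each genotype of the first cohort. In KO cells it had a median of 19.7 points over the 60 histone genes and 2.08 over all genes, and in WT cells 10.9 and 0.857. Counted by region, 35 of 40 histone regions (87.5%) were higher in both oxLDL lists than in both untreated lists, against 34.2% of 28758 regions, and 1 (2.5%) was lower, against 21.5%. In the full lists 41 of 60 histone genes did so (68.3%), against 17.1% of all genes, and 5 were lower (8.33%), against 36.4%. The median difference in the full lists was 4.55 points.

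H3c4 and H2ac7, which share their best peak, had the largest difference in the fit over all 12 libraries. They stood at 65.0 in oxLDL KO and 73.5 in oxLDL WT, against 36.4 in untreated KO and 52.1 in untreated WT cells of the first cohort. With ApoE deleted they stood at 84.4 and 67.5 in oxLDL KO and 84.6 and 81.0 in oxLDL WT, against 70.9 and 57.6 in untreated KO and 75.4 and 67.2 in untreated WT cells. The groups were apart in the first cohort and overlapped in the ApoE KO cohort.

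The width of the histone peaks and the length of the lists they sit in differed by treatment as well. In the first cohort oxLDL lists were shorter, with 93867 autosomal peaks in KO and 80394 in WT, against 138132 in untreated KO and 106477 in untreated WT. Histone peaks were narrower with oxLDL, with a median width of 818 bp in KO and 797 bp in WT, against 1209 bp in untreated KO and 954.5 bp in untreated WT. The part of list length and peak width in the percentile difference was not tested. With all 12 lists cut to 24397 peaks, 48 of the 63 histone genes kept a peak in oxLDL KO and 51 in oxLDL WT, against 11 in untreated KO and 28 in untreated WT cells of the first cohort. All genes had a peak in 53.6% to 56.9% of cases in these 4 lists, and 53 to 60 histone genes had one in the ApoE KO lists.

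The ApoE KO cohort did not show this. None of the 60 histone genes had all 4 oxLDL lists above all 4 untreated lists, where 1.46% of all genes did. All 4 lay below for 4 of 60 (6.67%), where 1.55% of all did. These were the peak-sharing neighbours H3c13 and H2bc18, at 57.9 and 59.0 in oxLDL KO and 55.9 and 57.7 in oxLDL WT, against 75.5 and 77.6 in untreated KO and 89.2 and 74.5 in untreated WT cells, and the neighbours H2bc9 and H3c7. For H2bc9 and H3c7 the treatments overlapped in full lists. The median difference over the 60 genes was -1.14 points, against -0.389 over all genes. The difference between the cohorts was not tested, and with 1 library per group in the first cohort it has no replicate check there beyond the 2 genotypes.

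**Figure D5:**
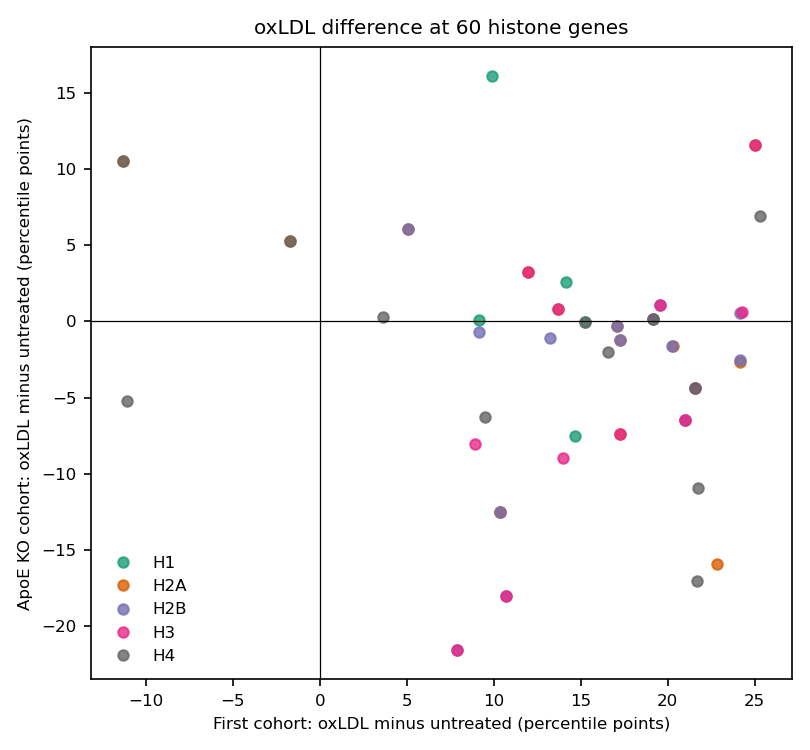
oxLDL minus untreated difference in score percentile for the 60 histone genes with a peak in at least 6 lists, with the first cohort on the x axis and the ApoE KO cohort on the y axis, coloured by class, in percentile points. The first-cohort differences are above 0 for 55 of 60 genes, and the ApoE KO differences for 24 of 60.

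In 1 fit over all 12 libraries and all 12462 genes, with cohort as a term (limma, Benjamini-Hochberg adjustment), no gene and no histone gene passed an adjusted p of 0.05 for oxLDL against untreated (percent called 0). At an unadjusted p under 0.05 there were 679 genes (5.45%), 3.22% of all genes being higher and 2.23% lower. Of the 60 histone genes 4 were in this set, all higher. H3c4 and H2ac7 had a difference of 16.1 points (SE 4.18, limma adjusted p = 0.842), H1f3, a linker histone gene, 14.1 points (SE 3.14, adjusted p = 0.842) and H4c8 13.1 points (SE 4.73, adjusted p = 0.881). For H3c4 the direction depended on the window, with -22.6 points when only peaks within 1 kb were counted. In full lists the differences were 6.34 points for H3c4 and H2ac7, 4.15 for H1f3 and 5.54 for H4c8. The next were H3c11 with 8.49 points (-5.02 in full lists) and H2bc7 with 8.40 points (2.39 in full lists). The lowest were H3c13 and H2bc18 with -11.8 (SE 5.30, adjusted p = 0.881, and -4.61 without the L001 libraries), H2bc9 and H3c7 with -8.45 and H4c11 with -7.18 points. Over the 60 histone genes 45 were above 0 with a median of 4.26, and 6716 of 12462 genes were, with a median of 0.304. The direction turned in full lists, with 24 of 60 above 0 and a median of -1.75, against -3.25 for all genes. It turned also in the ApoE KO cohort alone, with 22 of 58 above 0 and a median of -1.22, against -0.427 for all genes. Of 28758 regions none passed an adjusted p of 0.05 (limma), and 2697 (9.38%) had an unadjusted p under 0.05. Of the 40 histone regions 4 were among these, all higher. They were the regions of H3c4 and H2ac7, of H1f3 and of H4c8, and 1 over H2ac10 (chr13:23533506-23534328) with 20.3 points (SE 6.86, limma adjusted p = 0.464).

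H1f3 (chr13:23555032-23555807) had 74.3 in oxLDL KO and 72.6 in oxLDL WT, against 63.8 in untreated KO and 63.4 in untreated WT cells of the first cohort. In ApoE KO cells it had 53.7 and 65.0 in oxLDL KO and 71.5 and 66.3 in oxLDL WT, against 41.8 and 53.8 in untreated KO and 48.5 and 47.9 in untreated WT cells. The oxLDL values were higher in the first cohort without overlap, and in the ApoE KO cohort 1 oxLDL KO library fell just under the highest untreated one.

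The comparison of KO with WT cells was the one through which the histone genes were picked, and its values are given as they stand. In the fit over all 12 libraries no gene passed for KO against WT (percent called 0, limma), and 14.3% of the 12462 genes had an unadjusted p under 0.05, 11.3% lower and 2.99% higher. Since this comparison chose the histone genes, their own p-values are not used. Of the 60 histone genes 50 had a difference below 0, with a median of -3.90 points, as had 8212 of 12462 genes, with a median of -1.76. The direction turned in full lists, with 39 of 60 above 0 and a median of 0.849, against 1.56 for all genes. Of 28758 regions none passed for KO against WT, and 3719 (12.9%) had an unadjusted p under 0.05 (limma). In the full lists of the first cohort the median KO minus WT difference over the 60 genes was -0.755 in untreated and 0.426 in oxLDL-treated cells, against -10.1 and -3.09 in the equal-length lists. Untreated KO cells had the longest list of that cohort.

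H4c12 (chr13:21750145-21750553) had the largest fall, -24.6 points (SE 8.61). It had 45.4 in KO and 50.8 in WT cells with oxLDL and 12.1 in KO and 40.6 in WT cells without it in the first cohort. Its 4 KO lists of the ApoE KO cohort gave 0 in both oxLDL libraries and 5.49 and 0 in the untreated ones, and its 4 WT lists there gave 40.5 and 0 with oxLDL and 28.4 and 50.5 without it. The genotypes overlapped at 0 in the ApoE KO cohort. H4c12 is a near-identical copy of H4c11, which had the largest rise, 4.104 points (SE 4.86). The H4c12 difference was -3.90 points with a 5 kb window, -9.32 in full lists and -14.5 without the L001 libraries, and that of H4c11 was 11.4 in full lists.

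H4c14 (chr3:96262934-96263317) had a difference of -16.6 points (SE 6.58) in the fit, -7.46 in full lists and -8.56 without the L001 libraries. Its ApoE KO values were 40.5 and 51.9 in oxLDL KO, 58.5 and 75.2 in oxLDL WT, 55.9 and 27.9 in untreated KO, and 77.4 and 63.8 in untreated WT cells. It was the 1 histone gene of 60 (1.67%) whose 4 KO lists lay below all 4 WT lists in the ApoE KO cohort, where 6.51% of all genes did so. In the first cohort H4c14 had 87.1 in KO and 85.5 in WT cells with oxLDL and 81.3 in KO and 83.9 in WT cells without it, and the genotypes overlapped. There both KO lists were below both WT lists for H4c18 and H2ac24 (3.33%), where 20% of all genes were. In these equal-length lists no histone gene was higher without overlap in KO cells of either cohort, where 8.56% of all genes were in the first cohort and 2.21% were in the other. In full lists 4 of 60 were higher in the first cohort (6.67%), where 16% of all genes were, namely H3c15, H2ac19, H4c14 and H1f3, and none was lower, where 12.2% were. In full ApoE KO lists H3c3 and H2bc3 were higher (3.33%), where 6.02% were, and none was lower, where 0.642% were.

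The other large falls were H4c2 with -10.4 points (SE 8.83), H3c11 with -9.99 (SE 11.8) and H2ac7 and H3c4 with -8.67 (SE 4.18). H4c2 turned to 0.104 in full lists and 2.61 without the L001 libraries, H3c11 turned to 2.53 in full lists, and H2ac7 and H3c4 stood at -1.97 in full lists. After H4c11 the largest rises were 3.93 points (SE 6.60) for H2bc13, H2ac13 and H3c10, which share a best peak, and 3.11 points (SE 7.93) for H2bc9 and H3c7. H2bc14 differed by 1.02 points (SE 3.11), and by -1.81 with 1 list length for all 12 libraries. H3c10 had 89.1 in KO and 89.5 in WT cells with oxLDL and 63.3 in KO and 73.4 in WT cells without it in the first cohort. Among ApoE KO libraries it had 63.9 and 88.9 in KO and 57.7 and 69.7 in WT cells with oxLDL, and 79.1 and 78.3 in KO and 80.8 and 68.0 in WT cells without it. The genotypes overlapped in both cohorts.

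The KO effect with oxLDL minus the KO effect without it was past an adjusted p of 0.05 for no gene (percent called 0, limma) and past an unadjusted p of 0.05 for 4.28% of genes, 2.64% higher and 1.64% lower. This contrast is built from the KO against WT values, so the histone genes' own p-values are not used here either. H4c11 had 31.5 points (SE 9.72) and H3c11 -42.9 points (SE 23.6).

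Genes that work with the clustered histones were set beside them from lists chosen with earlier results known. Npat, the coactivator, had a peak in 12 of 12 lists and a mean percentile of 98.8, and Slbp, which binds the stem-loop of histone mRNAs, 85.5. Of the replication-independent histone genes, H2az1 had 94.3, H3f3b 64.2 and H1f0 38.1. For oxLDL in the first cohort the mean difference was above 0 in 10 of 10 replication-independent histone genes (median 6.16 points), 17 of 20 genes of histone transcription and mRNA processing (3.15), 17 of 18 histone chaperones (3.46) and 19 of 23 S-phase and cell-cycle genes (2.60). For all genes it was above 0 in 67.3%, with a median of 1.499, and for the macrophage markers in 9 of 12 (8.61). Across ApoE KO lists it was above 0 in 4 of 10 replication-independent histone genes (median -1.01 points), 2 of 20 transcription and processing genes (-2.27), 9 of 18 chaperones (-0.140), 11 of 23 S-phase and cell-cycle genes (-0.118) and 1 of 12 macrophage markers (-14.1), and in 45.6% of all genes (-0.389). In the fit over all 12 libraries none of these genes passed an adjusted p of 0.05 for oxLDL or for KO against WT (limma). At an unadjusted p under 0.05 for oxLDL (limma) there was 1 of 18 histone chaperones, higher, and 1 of 23 S-phase and cell-cycle genes, lower. Of the 12 macrophage markers 3 were in that set, 1 higher and 2 lower, and none of the other lists named here. Among all genes the share was 5.45%.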

How the data were processed

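Each of the 12 paired-end ATAC-seq libraries has its own peak list, with no pooling of samples. Per the submitters' processing notes, MACS3 (first cohort) or MACS2 (ApoE KO cohort), Bowtie2 2.3.4.1, bedtools 2.28.0, SAMtools 1.2, Picard, cutadapt, Trim Galore and FastQC were used, on mm10. Parameters, among them a transposase shift, duplicate removal and the handling of multi-mapping reads, were not given in the sources used here. For each peak the authors deposited a caller score, used here only to rank a list's own peaks. As deposited by the authors, the ApoE KO lists add a fold enrichment over background (a ratio), −log10 values of p and q, and the summit. The lists hold no reads, so depth is unknown and no counting interval is given.

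From these, peaks within 2 kb of each RefSeq gene on the 19 autosomes were taken, and percentiles were fitted with limma 3.58.1 (R 4.3.3) with genotype-by-treatment group and cohort, for 12462 genes or 28758 merged regions with a peak in at least 6 of 12 equal-length lists. In simulated data with 12462 genes the KO against WT fit recovered 28.4% of shifts of 10 points, 49.2% of 20 and 83.3% of 40. The measured percentiles have a floor and a ceiling, and their scale differs between the cohorts. Whether the simulated shares hold for such values was not tested, so they give no detection rate for these data. Motifs and summits were read with Python 3.11.15. The genes and lists were chosen with earlier results of these data known. Named genes were the highest and lowest of each class, the 5 largest rises and falls per comparison, and a few fixed genes. The alternatives tried were other list lengths, windows and filters, a replicate block, and leaving out libraries.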

Additional observations from a re-analysis of the deposited data

Results flagged for a closer look

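In equal-length lists, 4 histone genes had every oxLDL list above the untreated ones in the first cohort and below them in the ApoE KO cohort. H3c13 and H2bc18, which share a best peak, were 7.88 percentile points higher with oxLDL in the first cohort and -21.6 points in the ApoE KO cohort, a gap of 29.5 points for each. H2bc9 and H3c7, which share another, were 10.7 points higher in the first cohort and -18.0 points in the ApoE KO cohort, a gap of 28.7 points for each. Their highest oxLDL list in the ApoE KO cohort stood at 77.1 and their lowest untreated one at 77.6. The lowest oxLDL list, WT replicate 2, stood at 35.2. In full lists these groups overlapped, with oxLDL KO replicate 1 at 84.2 and untreated KO replicate 2 at 83.6. The difference between the cohorts was not tested at any of the 4 genes. The cohorts also differ in cryopreservation and library kit, and the first cohort's ApoE status is not given.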

How the results depend on the processing

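No gene or region was called in the fit over all 12 libraries, so no called direction could turn. For oxLDL against untreated, no histone gene passed an adjusted p of 0.05 (limma) in any alternative fit over genes. The histone genes' own p-values are not used for the other comparisons. With KO against WT, 7 genes passed in the ApoE KO cohort alone (0 in all 12 libraries), and 1 region passed in full lists and 9 with 1 list length for all libraries. With oxLDL, 1 gene passed in full lists and 2 on log2(peaks + 0.5), and 48 regions in full lists and 2 with 1 list length. Leaving out 1 library gave 0 to 37 genes and 0 to 139 regions for KO against WT, 0 to 2 genes and 0 to 8 regions for oxLDL, and 0 to 1 gene for the interaction, the highest each time without the first-cohort oxLDL KO library. The first-cohort untreated WT library or ApoE KO untreated KO replicate 1, when left out, gave 1 gene for KO against WT.

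For KO minus WT the mean of distinct histone peaks in equal-length lists was -3.75 (-4.88 to -2.63 leaving out a library, and 0.125 in full lists), genes with a peak 1.19 points (0.198 to 2.18, and -8.33 with 1 list length), and the median percentile -5.10 (-6.19 to -3.50, and 0.442 in full lists). For oxLDL minus untreated, distinct peaks were 2.75 (1.33 to 3.88, 8.5 with 1 list length, 0.625 in full lists and -0.5 in the ApoE KO cohort alone), genes with a peak -0.794 (-1.79 to 0.198, and 23.0 with 1 list length), and the median percentile 4.47 (0.520 to 5.56), with -1.83 in full lists, 10.2 with 1 list length and -4.997 in the ApoE KO cohort alone. The low of 0.520 came without either first-cohort KO library. The causes were not tested.

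With the replicate number as a block, 0 genes and 0 regions passed in every comparison (limma), with 1769 genes at an unadjusted p under 0.05 for KO against WT, 663 for oxLDL and 516 for the interaction, and 3734 and 2685 regions for KO against WT and for oxLDL. Same-numbered libraries of the ApoE KO cohort did not deviate together (correlations of -0.133 to 0.0405 over 12462 genes). This cannot settle whether they share an animal or a batch, which the labels do not state.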
